A study of Mus musculus with 12 samples.

Results

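Transcripts of 9 adipocyte genes were followed library by library in sorted mouse dermal papilla cells. The dermal papilla is a cluster of mesenchymal cells on which the hair follicle sits. The genes were listed by name (Adipoq, Cfd, Fabp4, Plin1, Lipe, Pnpla2, Retn, Cidec and Car3), and all 9 were found among the 25887 genes of the tables and passed the filter on low values. The 12 libraries were 3 each from wild-type (WT) and Smo* cells at postnatal day 20 (P20), labelled female and telogen, and 3 each at postnatal day 28 (P28), labelled male, with WT at anagen VI and Smo* at anagen I-III. Telogen is the resting and anagen the growth stage of the hair cycle. Smo* is a gain-of-function form of Smo, a membrane protein that relays Hedgehog signals into cells, and the series title places it in the dermal papilla. The Cre line and the sorting gate are not given in the sources used here. Age moves with labelled sex, and at P28 genotype moves with growth stage, so these cannot be told apart. Since the labels do not tie libraries to separate animals, a p-value here reflects how these samples spread, which may be technical variation.

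Adipocytes store triglyceride in a lipid droplet, release it as fatty acids through a chain of lipases, and secrete hormones into the blood. In skin they form the dermal white adipose layer, which lies around the lower part of the hair follicles and thickens and thins with the hair cycle. Adipoq, Cfd and Retn encode secreted proteins: adiponectin, the complement protease factor D (adipsin) and resistin. Plin1 and Cidec encode proteins that coat the lipid droplet and enlarge it. Pnpla2 and Lipe encode the lipases that act in turn on triglyceride and diglyceride. Fabp4 encodes a carrier of fatty acids, which is also made by endothelial cells and macrophages, and Car3 encodes a carbonic anhydrase abundant in fat and also made in skeletal muscle.

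The genes lie on 6 chromosomes (GRCm38 positions from GENCODE): Adipoq (ENSMUSG00000022878) on chromosome 16 from 23146536 to 23158028, Cfd (ENSMUSG00000061780) on chromosome 10 from 79890853 to 79892655, and Retn (ENSMUSG00000012705) on chromosome 8 from 3655770 to 3660110. Plin1 (ENSMUSG00000030546) lies on chromosome 7 from 79720218 to 79732903, with Lipe (ENSMUSG00000003123) from 25379527 to 25398710 and Pnpla2 (ENSMUSG00000025509) from 141455198 to 141460743 on the same chromosome. Cidec (ENSMUSG00000030278) lies on chromosome 6 from 113424634 to 113435760. Fabp4 (ENSMUSG00000062515, 10204088 to 10208576) and Car3 (ENSMUSG00000027559, 14863512 to 14872523) both lie on chromosome 3. In that annotation 8 of the 9 overlap no other gene, and Lipe overlaps 1 antisense gene, whose reads cannot be told apart from those of Lipe where counting ignored the strand.

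Because most of these genes moved together between libraries, their promoters were read from RefSeq (GRCm38.p6, 250 bases before to 50 after a gene's start), which holds 9 windows of 7 members (not Fabp4 or Car3). The motifs searched on both strands were TTNNGCAA (a C/EBP pattern), AGGTCA (the core bound by nuclear receptors such as PPARG) and CCAAT, where no matches of different motifs overlapped. The windows of Adipoq and Cfd (secreted proteins) and of Plin1 and Cidec (droplet proteins, the upstream-most Cidec window left out) are shown, 5′ to 3′ on the gene's strand, with matches in capitals.
Adipoq, chr16:23146286-23146585, plus strand: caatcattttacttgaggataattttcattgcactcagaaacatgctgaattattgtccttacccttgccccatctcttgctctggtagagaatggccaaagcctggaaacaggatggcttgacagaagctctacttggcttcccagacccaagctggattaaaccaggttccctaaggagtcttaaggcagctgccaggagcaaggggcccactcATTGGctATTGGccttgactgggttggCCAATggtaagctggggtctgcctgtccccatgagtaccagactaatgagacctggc
Cfd, chr10:79890603-79890902, plus strand: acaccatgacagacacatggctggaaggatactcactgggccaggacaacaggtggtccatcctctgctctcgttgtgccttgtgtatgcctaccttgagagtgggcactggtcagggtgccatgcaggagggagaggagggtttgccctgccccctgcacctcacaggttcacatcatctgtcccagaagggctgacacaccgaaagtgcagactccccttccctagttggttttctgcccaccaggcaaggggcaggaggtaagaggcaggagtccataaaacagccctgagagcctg
Plin1, chr7:79732727-79733026, minus strand: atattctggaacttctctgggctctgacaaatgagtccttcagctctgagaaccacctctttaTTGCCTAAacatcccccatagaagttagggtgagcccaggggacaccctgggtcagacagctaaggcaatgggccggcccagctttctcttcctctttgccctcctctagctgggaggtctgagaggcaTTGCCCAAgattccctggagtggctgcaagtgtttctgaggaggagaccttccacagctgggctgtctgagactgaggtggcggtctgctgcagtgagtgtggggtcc
Cidec, chr6:113434715-113435014, minus strand: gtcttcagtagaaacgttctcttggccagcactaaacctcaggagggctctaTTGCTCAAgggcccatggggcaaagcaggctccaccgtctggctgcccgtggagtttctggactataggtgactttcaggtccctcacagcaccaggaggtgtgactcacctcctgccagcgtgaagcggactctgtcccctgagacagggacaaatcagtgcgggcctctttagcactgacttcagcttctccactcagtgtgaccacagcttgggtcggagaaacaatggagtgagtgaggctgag

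TTNNGCAA was found in the windows of Plin1, with 2 matches, and Cidec, with 1, against 10.8% of all 32851 promoter windows. CCAAT was found in the Adipoq window alone among the 9 (3 matches), against 37.4% of all windows. AGGTCA was in 0 of the 9 windows, against 16.3% of all. Within these windows the 7 members thus held no one of these patterns in common. Each pattern is absent from most windows of all genes, and Fabp4 and Car3 could not be read. Whether the members share a regulator was not tested.

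One library stood apart from the other 11 and bears on every P28 comparison: P28 Smo* replicate 3, whose title number is 709. The libraries held 36323058 to 48926831 reads on genes, and replicate 3 held 44805067. It had a read for 15453 genes, against 17337 to 17926 in the others, and after thinning every library to 36323058 reads the numbers were 15411 and 17177 to 17876. Genes seen with 1 to 3 reads numbered 368 in it, against 1324 to 1812 elsewhere. In the label check, Smo, Gli1, Ptch1 and Hhip were higher in all 3 P20 Smo* than in all 3 P20 WT libraries. At P28 the same held for Smo, Gli1 and Ptch1, while Hhip lay at 36605 to 42843 normalized counts in WT and at 33486, 49363 and 8915 in Smo* replicates 1, 2 and 3. All 20 genes of a dermal papilla list had reads in all 12 libraries.

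All values are the authors' normalized read counts. Adipoq lay at 2.26, 35.4 and 72.3 in P20 WT replicates 1, 2 and 3 and at 155, 0 and 270 in P20 Smo*. At P28 it lay at 0, 0 and 3.68 in WT and at 25.3, 1.90 and 1018 in Smo*. Adiponectin transcripts were thus near 0 in all P28 WT libraries and in 1 library of each other group, and highest in P28 Smo* replicate 3. In bulk samples, fewer cells of a type and less RNA per cell cannot be told apart.

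Cfd lay at 18.1, 118 and 354 in P20 WT and at 830, 6.97 and 1827 in P20 Smo*. At P28 it had 0 reads in all 3 WT libraries, which allows up to 2.56, 3.56 and 2.76 normalized counts (3 reads), and 100.3, 0 and 8165 in Smo*. Each group with reads held both a library under 20 and one over 300. Cfd in P28 Smo* replicate 3 was at least 2292-fold higher than the largest of the WT limits.

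Retn, the third secreted product, was the least abundant member. It lay at 0, 9.37 and 19.3 in P20 WT, at 43.4, 3.48 and 72.1 in P20 Smo*, at 0.853, 4.75 and 0 in P28 WT and at 3.31, 0 and 440 in P28 Smo*. Here the level in P28 Smo* replicate 3 was 6.10 times the next highest of the 12, the largest such ratio among the 9.

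Of the droplet proteins, Cidec lay at 10.2, 36.4 and 71.3 in P20 WT, at 289, 6.10 and 695 in P20 Smo*, at 0 in all 3 P28 WT libraries and at 29.8, 1.90 and 1310 in P28 Smo*. In P28 Smo* replicate 3 it was at least 368-fold higher than the largest WT limit. Plin1, whose protein guards the droplet surface, did not follow this pattern in P28 WT. It lay at 50.9, 63.5 and 115 in P20 WT and at 220, 74.9 and 379 in P20 Smo*, then at 270, 211 and 223 in P28 WT and at 128, 105 and 1544 in P28 Smo*. Smo* replicates 1 and 2 were below all WT libraries at P28 and replicate 3 was above them.

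The lipases varied least. Lipe lay at 255, 264 and 313 in P20 WT, 339, 255 and 525 in P20 Smo*, 262, 428 and 359 in P28 WT and 218, 182 and 926 in P28 Smo*. Pnpla2 lay at 728, 884 and 913 in P20 WT, 917, 438 and 1263 in P20 Smo*, 733, 1005 and 795 in P28 WT and 889, 664 and 1646 in P28 Smo*. The highest library exceeded the lowest by 5.09 times for Lipe and 3.76 times for Pnpla2. For comparison, Car3 spanned 406 times.

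Fabp4 lay at 188, 792 and 702 in P20 WT, 622, 301 and 1097 in P20 Smo*, 206, 204 and 234 in P28 WT and 614, 253 and 1235 in P28 Smo*. Its lowest value was 188, while Adipoq, Cfd and Cidec had few or no reads in P28 WT. Car3 lay at 106, 223 and 566 in P20 WT, 873, 13.9 and 1416 in P20 Smo*, 29.9, 28.5 and 18.4 in P28 WT and 179, 35.1 and 5659 in P28 Smo*. For both genes the P28 Smo* libraries all lay above the WT libraries, by a small margin in replicate 2.

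**Figure D1:**
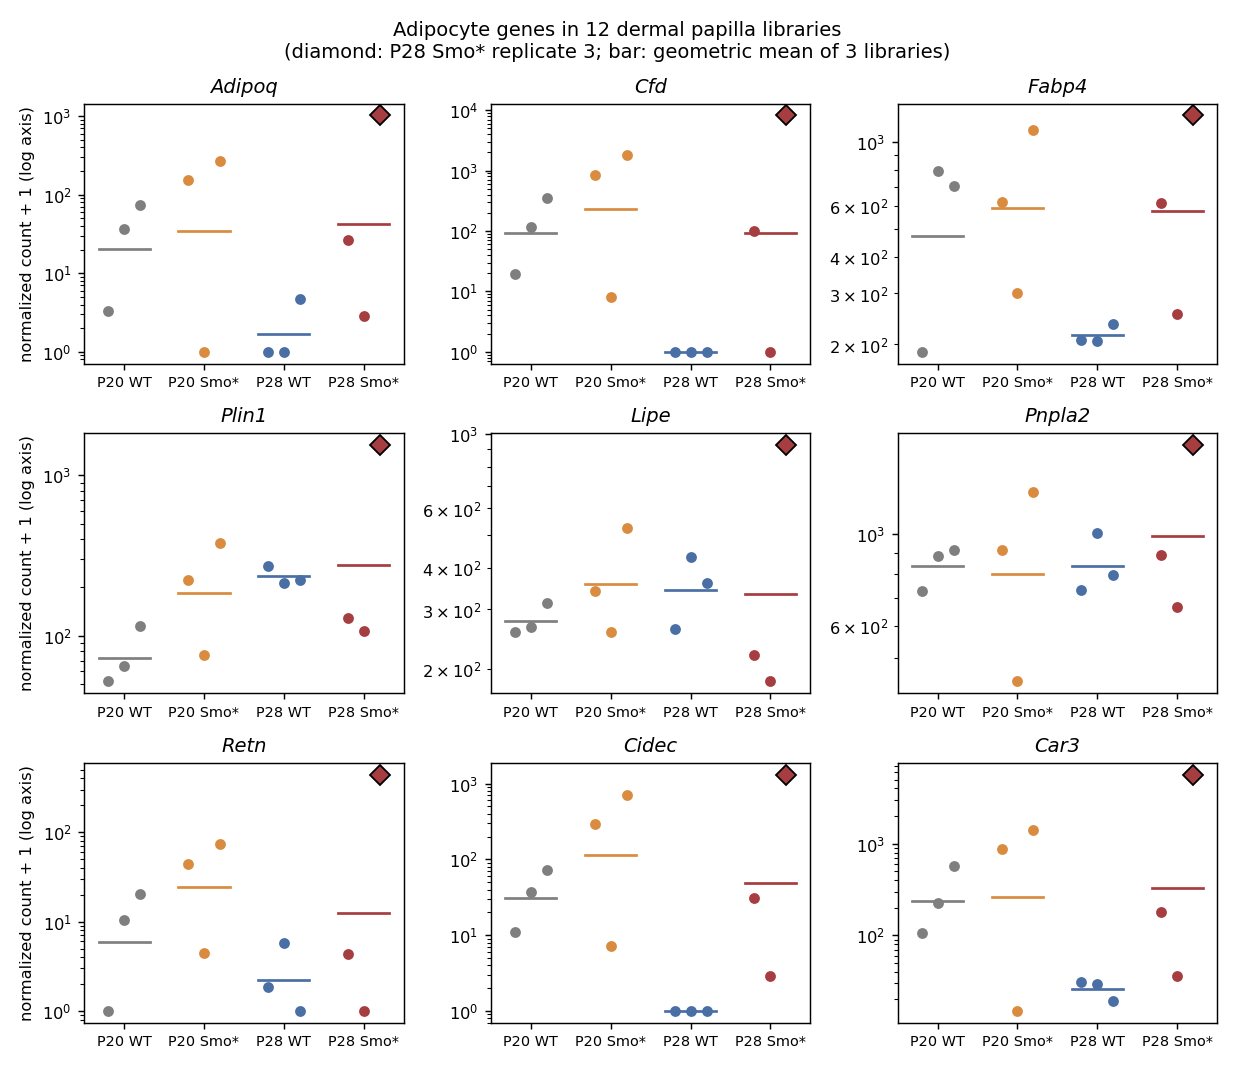
Normalized count + 1 (log axis) of each of the 9 adipocyte genes in the 12 libraries by group, with a bar at the geometric mean of 3 libraries and a diamond for P28 Smo* replicate 3. The diamond is the highest of 12 points in 9 of 9 panels, and Cfd and Cidec sit at 0 reads in all P28 WT libraries.

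Levels of different genes were compared per kilobase of annotated exon, with the exons of all annotated transcripts merged. For Fabp4 the merged exons cover 4489 bases, the whole gene from start to end. Where a transcript is shorter than the merged exons its level is understated, so the place of Fabp4 in these orders is uncertain. In P28 Smo* replicate 3 the order was Cfd at 8856 normalized counts per kilobase, Car3 at 1975, Adipoq at 737, Cidec at 706, Pnpla2 at 545, Plin1 at 332, Retn at 278, Fabp4 at 275 and Lipe at 157. Single libraries have no replicate spread, so neighbours such as Adipoq and Cidec, or Retn and Fabp4, cannot be ordered. In P28 WT the means over 3 libraries put Pnpla2 first at 280 per kilobase, followed by Lipe at 59.4, Plin1 at 50.5 and Fabp4 at 47.8, with Car3 at 8.93. The lipases, Plin1 and Fabp4 were thus the higher members in P28 WT. Car3 was low but had reads in every P28 WT library, and the secreted proteins and Cidec were at or near 0.

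P28 Smo* replicate 3 was the highest of the 12 libraries for 9 of 9 members, where it was the highest for 14.0% of all 14790 genes tested. It was at least 2-fold above both of its replicates for 8 of 9, where the share over all genes was 3.03%. The exception was Pnpla2, at 1.85 times the nearer replicate, and Fabp4 was just past the limit at 2.01 times. The median difference of the 9 from the mean of the other 2 replicates was 6.14 on the log2(value + 1) scale, against -0.02 over all genes. Single members ranged from 1.10 for Pnpla2 to 9.66 for Cfd. Retn was at 133 times the nearer replicate.

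When 11968 genes with a mean of at least 50 at P28 were ranked by their difference to the nearer replicate, Retn, Cfd, Cidec, Adipoq, Car3 and Plin1 were at ranks 1, 2, 3, 5, 6 and 10. That mean included replicate 3 itself. In the other P28 libraries Retn, Cidec and Adipoq lay at 4.75, 29.8 and 25.3 or less. Cfd lay at 100.3 in Smo* replicate 1 and at 0 in the rest. These 4 genes thus entered the ranking only through replicate 3, and their ranks are no independent support. Lipe was at rank 18, Fabp4 at 118 and Pnpla2 at 162. The other genes of the first 10 were Cyp2e1, a cytochrome P450, Hp, the plasma protein haptoglobin, Gpd1, which makes the glycerol backbone of triglyceride, and Thrsp, a regulator of fatty acid synthesis. Hp lay at 95.9, 14.2 and 3002 in P28 Smo* replicates 1, 2 and 3. At the other end of the ranking stood Spef2, Ano5, Vwc2, Csn1s1, Amph, Kcnq3, Btn1a1, Dusp13, Slc5a7 and Tpd52l1, none of them in an adipocyte list. Kcnq3, a potassium channel gene, lay at 494, 544 and 4.28 and Slc5a7, a choline transporter gene, at 663, 672 and 7.49, and the other 8 had 0 reads in replicate 3.

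**Figure D2:**
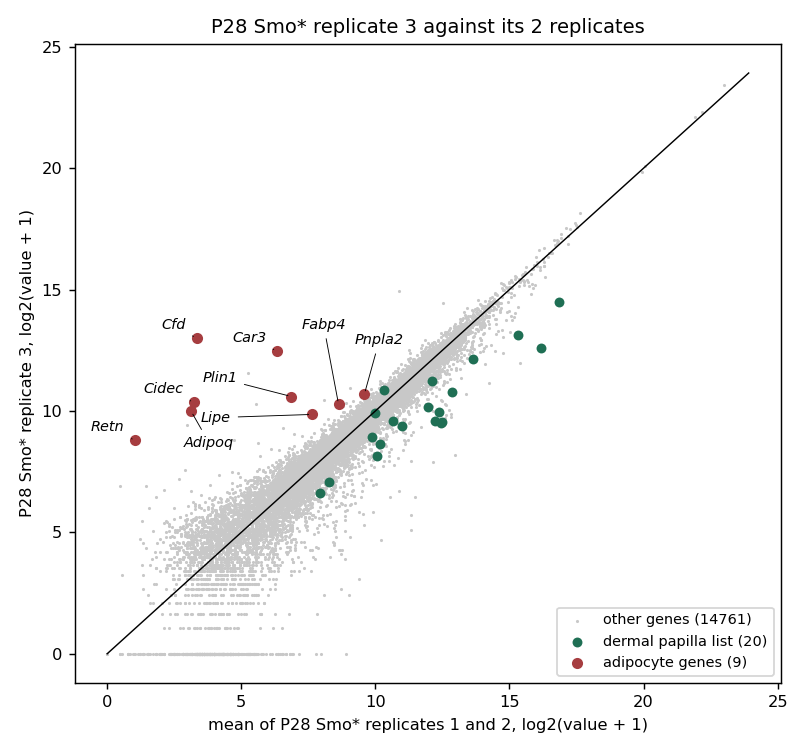
Each gene's level in P28 Smo* replicate 3 against the mean of replicates 1 and 2, both on the log2(value + 1) scale, with the line of equal levels. The 9 adipocyte genes lie above the line, Cfd by 9.66 and Pnpla2 by 1.10, and 13 of the 20 dermal papilla genes lie at least 2-fold below both replicates.

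The adipocyte genes also varied between replicates of other groups. The next highest library was P20 Smo* replicate 3 for 9 of 9 members, and the ratio of P28 Smo* replicate 3 to it ran from 1.13 for Fabp4 to 6.10 for Retn. P20 Smo* replicate 3 was above both of its replicates for 9 of 9 (33.7% of all genes), and P20 Smo* replicate 2 was below both for 9 of 9 (35.3%), at least 2-fold for 8 (2.38%). P20 WT replicate 1 was below both for 9 of 9 (34.8%), at least 2-fold for 6 (2.12%). P28 Smo* replicate 2 was below both for 9 of 9 (29.4%), at least 2-fold for 6 (2.16%). In P28 WT each library lay above both others for 3 members or fewer (32.6% to 33.9% of all genes). Each was below both for 2 at most (4540 to 5367 of 14790 genes). There Cfd and Cidec had 0 reads in all 3 libraries and Adipoq and Retn at most 4, which limits these counts.

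**Figure D3:**
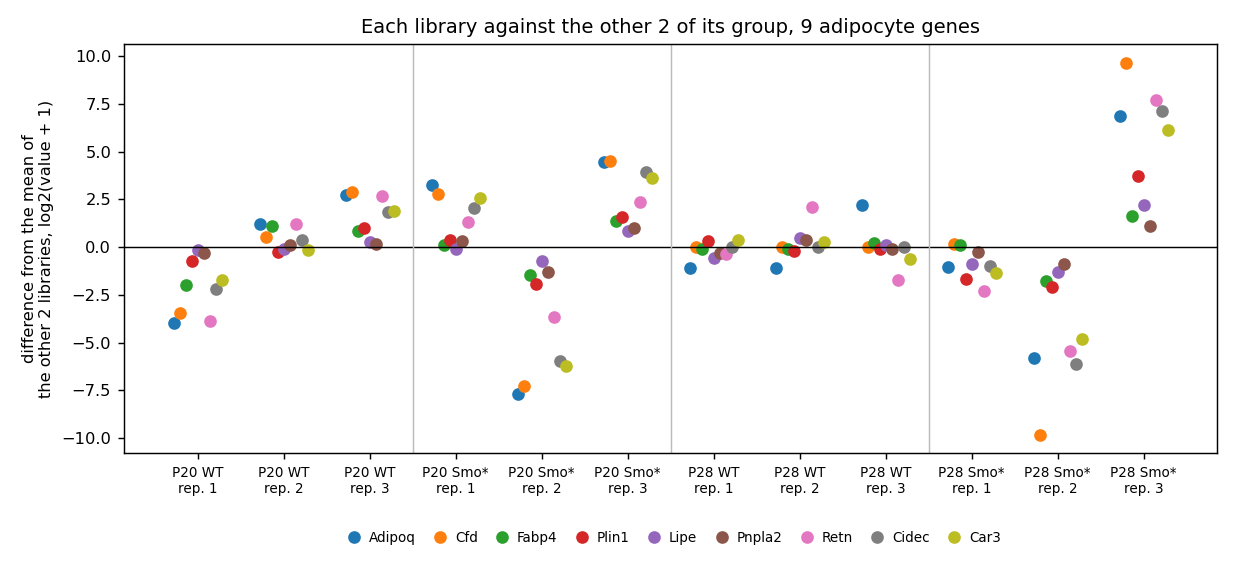
Difference of each library from the mean of the other 2 of its group, on the log2(value + 1) scale, for the 9 adipocyte genes. P28 Smo* replicate 3 has 9 of 9 points above 0 with a median of 6.14, and P20 Smo* replicate 2 and P28 Smo* replicate 2 have medians of -3.67 and -4.80.

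The weight of the members in P28 Smo* replicate 3 was measured in several ways. Summed over the 9, they reached 21944.5 normalized counts in it against 1099 to 7545 in the other 11, which was 0.0458% of its reads against 0.00292% to 0.0199%. They made 1.94% of the summed squared log2 differences of this library from its replicates, and 3.89% with genes at a mean of at least 50, while 9 of 14790 genes are 0.0609% of the genes tested. The share was 4.72% in P20 Smo* replicate 2 and 3.07% in P28 Smo* replicate 2, and it also depends on how far all other genes deviate. Across 14790 genes, which are not independent replicates, the Spearman correlations of replicate 3 with replicates 1 and 2 were 0.970 and 0.966, and those between the other replicate pairs of the study were 0.981 or more. Leaving out the 9 members gave 0.971 and 0.967, and leaving out 69 further adipocyte genes as well again gave 0.971 and 0.967. Leaving out the 20 dermal papilla genes described below gave 0.970 and 0.966. A rank correlation over so many genes hardly moves with sets of this size, so these values do not weigh the sets against each other. Of the 448 genes at least 2-fold above both replicates, 8 were members, and of the 1171 genes at least 2-fold below both, 0 were.

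Other gene groups moved in the same library. Of the 20 dermal papilla genes, 13 were at least 2-fold below both replicates (7.92% of all genes) and 0 were 2-fold above. Among them Corin, a protease of the papilla surface, lay at 4148, 7856 and 751 in P28 Smo* replicates 1, 2 and 3, the matrix proteoglycan gene Vcan at 96288, 142994 and 22655, and the transcription factor gene Sox2 at 768, 1453 and 285. The summed level of the list was 234672, 363882 and 56414, against 464905 to 546099 in P28 WT and 61131 to 98837 at P20. Within P28 Smo* the library with the highest adipocyte sum thus had the lowest papilla sum, and replicate 2 had the reverse. At P20 the papilla sums of Smo* replicates 1, 2 and 3 were 77421, 85446 and 98837, where replicate 2 had the lowest and replicate 3 the highest adipocyte sum. By the same limit 3.03% of all genes were above both replicates and 7.92% below. Of 12 keratinocyte genes 6 were at least 2-fold below both replicates and Cdh1 above. Of 9 tested immune genes Ptprc, C1qa and C1qb were above and Adgre1 below. Adgre1 lay at 1.10, 24.7 and 0 in P28 Smo* replicates 1, 2 and 3, so its place rests on values near 0. Among the immune genes under the filter, Tyrobp lay at 8.82, 7.59 and 0 and Fcer1g at 3.31, 3.79 and 0. Of 4 tested skeletal muscle genes Ckm was above, at 27.5, 65.4 and 141 in P28 Smo* replicates 1, 2 and 3, and Acta1 below. Of the 12 endothelial genes, and of the 10 pericyte and smooth muscle genes, 0 passed the limit in either direction. The 3 main fibrillar collagen genes took 43.6% of its reads, against 25.4% to 39.96% elsewhere. The part of any of these in the adipocyte levels was not tested.

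**Figure D4:**
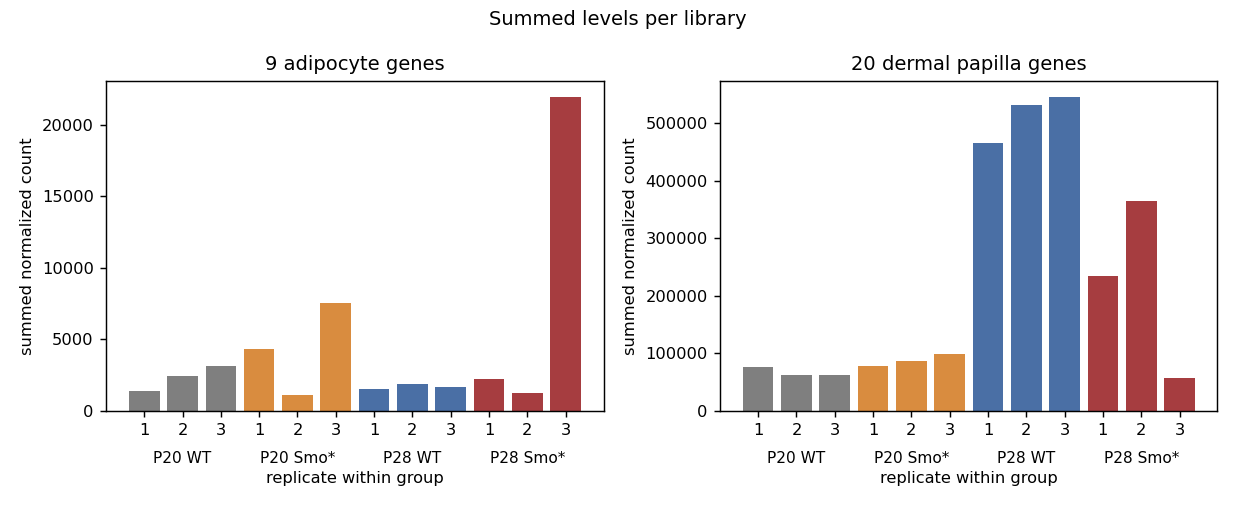
Summed normalized counts of the 9 adipocyte genes (left) and of 20 dermal papilla genes (right) in each library, in bars from 0. P28 Smo* replicate 3 has the highest adipocyte sum, 21944.5, and the lowest papilla sum, 56414.

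The first comparison asked how Smo* changed these transcripts in telogen. At P20, 0 of the 9 members were called by limma (Benjamini-Hochberg adjusted p under 0.05 over 14645 genes), where 0.696% of all genes were, and the groups overlapped for all 9 (they did not for 16.4% of genes). Plin1 had the lowest p, at 76.3 ± 33.8 in WT and 225 ± 152 in Smo* (SD, n = 3), a difference of 1.35 on the log2 scale with an SE of 0.56 (limma adjusted p = 0.417). Cfd lay at 163 ± 172 and 888 ± 911, a difference of 1.31 with an SE of 1.90 (limma adjusted p = 0.857). The median over the 9 was 0.76, against 0.00 over all genes, and 1 member, Plin1, had an unadjusted p under 0.05 (11.4% of all genes). Neither edgeR nor DESeq2 (3.23% of genes) called any.

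At P28, 0 of 9 were called by limma over 14757 genes, where 8.90% of all genes were. Adipoq, Cfd, Fabp4, Cidec and Car3, that is 5 of 9, had an unadjusted p under 0.05 (26.4% of all genes), all higher in Smo*. Adipoq, Retn and Cidec passed the P28 filter only through P28 Smo* replicate 3. This count, and the median over the 9 given below, are therefore set in part by that library. Fabp4 lay at 215 ± 16.7 in WT and 701 ± 497 in Smo*, which differ by 1.43 with an SE of 0.49 (limma adjusted p = 0.114). Car3 lay at 25.6 ± 6.26 and 1958 ± 3206 (3.67, SE 1.54, limma adjusted p = 0.176), and Adipoq at 1.23 ± 2.13 and 348 ± 580.1 (4.67, SE 1.95, limma adjusted p = 0.175). The fitted values of Cfd (6.55) and Cidec (5.61) are against a group with 0 reads in every library, so they depend on the pseudocount and are no bound. Plin1 (0.24), Pnpla2 (0.24) and Lipe (-0.04) were close to 0. The groups did not overlap for Fabp4 and Car3, with Smo* higher (15.6% of all genes). For Cidec the lowest Smo* library, at 1.90, was within the 3-read limits of the WT libraries. The median over the 9 was 2.49, also with Cfd and Cidec at their bounds, against -0.01 over all genes. Other cells also make these products. Of 12 endothelial genes Pecam1, Cdh5 and Vwf rose and 0 fell, and the list summed to 5981 to 7258 in WT and 7161 to 9461 in Smo*. Of 12 skeletal muscle genes 4 were tested and 0 called, and the list summed to 128 to 150.1 in WT and 148 to 311 in Smo*. Their part in the levels of Fabp4 and Car3 was not tested.

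The P28 values depended on which Smo* library was left out. Without P28 Smo* replicate 3 only 6 members passed the filter, since Adipoq, Retn and Cidec then had means under 10. Plin1 was then lower in Smo* and was called (log2 fold change -1.002, SE 0.22, limma adjusted p = 0.0252, against 11.0% of all genes called). Lipe (-0.78, limma adjusted p = 0.0835) and Pnpla2 (-0.12) were also below 0. Fabp4 (0.88), Car3 (1.63) and Cfd (3.33) stayed above 0 and were not called. Without P28 Smo* replicate 2, the library lowest in these genes, Car3, Cidec, Cfd and Fabp4 were called as higher, with limma adjusted p of 0.0436, 0.0298, 0.0144 and 0.0087 (7.76% of all genes called). DESeq2 gave no p for 13 of 14757 genes, and 6 of these were members (Adipoq, Cfd, Plin1, Retn, Cidec and Car3). It does so for genes with an extreme count. Of the 3 members with a p it called Fabp4 (1.71, DESeq2 adjusted p = 0.00217, 15.5% of genes). edgeR called 0 of 9, and the authors' deposited table had Car3 alone under 0.05 (log2 fold change 1.06 as Smo* over WT, adjusted p = 0.0484, 16.8% of genes). The deposited fold changes of some members were far smaller than those by limma (0.54 for Cfd and 0.68 for Cidec). Their sizes are thus not on a like scale.

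The difference between the Smo* effects at P28 and at P20 was tested as an interaction in a fit of all 12 libraries. By limma 0 of 9 members were called (4.72% of all 14790 genes) and 0 had an unadjusted p under 0.05 (21.7%). Of the count-based tools, DESeq2 called Cfd alone (10.2%) and edgeR no member. Cfd is the gene whose P28 WT libraries had 0 reads.

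Between ages within WT, 0 of 9 were called by limma (25.4% of all genes), and Cidec and Cfd had an unadjusted p under 0.05 (37.6% of all genes). Adipoq, Cfd, Fabp4, Retn, Cidec and Car3 had lower group means at P28 than at P20, at 163 and then 0 for Cfd and 39.3 and then 0 for Cidec. Plin1 had a higher one, at 76.3 and then 235, as did Lipe, at 278 and then 350. Pnpla2 was nearly level, at 841 and then 844. DESeq2 called Cidec and Cfd as lower (29.4% of all genes), and edgeR called 0. Within Smo*, which share the Smo* libraries of the comparisons above, 0 of 9 were called by limma (3.46%), by edgeR or by DESeq2 (11.0%), and 0 had an unadjusted p under 0.05 (22.8%).

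A wider set of 69 adipocyte genes in 5 lists (other secreted proteins, lipid droplet and lipolysis, transcription factors, lipid synthesis, uptake and receptors) was measured beside the 9. It summed to 264590, 246155 and 260080 in P28 Smo* replicates 1, 2 and 3 and to 242767 to 277035 in P28 WT. This sum thus did not set replicate 3 apart. Abundant genes weigh most in it, such as Ccdc80, at 30417 or more in P28 WT, where Adipoq, Cfd and Cidec were at or near 0. In P28 Smo* replicate 3, of 65 tested, 6 (9.23%) were at least 2-fold above both replicates, against 3.03% of all genes. These were Plin4, Mlxipl, Thrsp, Gpd1, Pck1 and Acsl1. Another 2 (3.08%), Cebpb and Npr3, were at least 2-fold below both, against 7.92% of all genes. This library was the highest of 12 for 22 of the 65 (33.8%), against 14.0% of all genes. The median difference of the 65 from the mean of the other 2 replicates was 0.29. Pparg, the master transcription factor of adipocytes, lay at 258, 282 and 440 in P28 Smo* replicates 1, 2 and 3. Cebpa, its partner, lay at 4105, 5686 and 3123, and at 17922 to 22114 in P28 WT, so this factor was highest in the group where Adipoq, Cfd and Cidec were at or near 0. Lep, the hormone leptin, lay at 8.56 in replicate 3 and at 0 to 4.56 in all other libraries. The brown fat gene Ucp1 lay at 0 in all 3 P28 Smo* libraries and at 0 to 6.24 elsewhere.

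Of these 65 genes, 9 rose and 5 fell in Smo* at P28 by limma (median 0.20), where 8.90% of all genes were called in either direction. Without replicate 3, 8 rose and 6 fell of 64, against 11.0% of all genes. Among the secreted proteins Sfrp5, a Wnt antagonist, rose by 4.37 (limma adjusted p = 0.000697), Rbp4, the retinol carrier, by 1.12 (limma adjusted p = 0.0192) and Itih5 by 0.89 (limma adjusted p = 0.0411), and 0 of 11 fell. Sfrp5 lay at 69.1, 30.9 and 87.5 in WT and at 1596, 842 and 1290 in Smo*. Among the transcription factors Zfp423 rose by 0.90 (limma adjusted p = 0.00701) and Cebpa fell by 2.24 (limma adjusted p = 0.000815). Of 16 synthesis genes 0 rose and 2 fell, namely the desaturase gene Scd1, by 2.35 (limma adjusted p = 0.000289), and Agpat2, by 0.72 (limma adjusted p = 0.0258). Scd1 lay at 21827, 24783 and 31285 in WT and at 4480, 5908 and 4797 in Smo*, and is also made in sebaceous glands. Of 16 uptake and receptor genes 5 rose and 2 fell. The receptor genes Npr3 (2.42) and Adora1 (2.56), the caveolin gene Cav1 (0.71), the fatty acid transporter gene Cd36 (1.48) and Adipor2 (0.48) rose. Adrb3, the receptor through which catecholamines start lipolysis, fell by 2.81 (limma adjusted p = 0.0026), and Adipor1, which like Adipor2 encodes an adiponectin receptor, by 0.51. Of 11 droplet and lipolysis genes 0 were called.

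At P20, Npr3 alone of the 65 was called, rising by 1.53 (limma adjusted p = 0.0150), where 0.696% of all genes were called. Of 10 genes of adipocyte progenitors, Icam1 and Dlk1 rose at P28, by 1.52 and 1.31, and Pdgfra fell by 0.57 (limma adjusted p = 0.0272, 0.0375 and 0.0408). Of all genes, 8.90% were called at P28. In P28 Smo* replicate 3, 0 of these 10 were at least 2-fold above both replicates and Cd24a was below. By the same limit 8 of the 9 mature adipocyte genes were above (3.03% of all genes). All progenitor genes but Dlk1 lay at 3555 or more in replicates 1 and 2, and all 9 mature adipocyte genes at 889 or less. Since the 2 sets start from such unlike levels, the limit does not weigh mature against progenitor transcripts.

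The genes most alike to the 9 were sought among 11963 others with a mean of at least 50, by the root mean square (RMS) difference on the log2 scale between a gene's profile over the 12 libraries, centred on its mean, and the mean profile of the members. The closest were Gpd1 (0.78), Thrsp (1.02), Cyp2e1 (1.06), Plin4 (1.15), a droplet coat protein, and Lrg1 (1.25), followed by Mybpc1, Sectm1b, Hp, Ckm and Slc22a3, up to 1.42. Gpd1 lay at 36.2, 89.5 and 137 in P20 WT, 161, 34.0 and 392 in P20 Smo*, 41.8, 29.7 and 70.9 in P28 WT and 62.8, 34.1 and 1240 in P28 Smo*. Its highest and second highest libraries were the same as those of all 9 members. The choice by profile favours this, so it is no separate observation. Against their own mean the members differed by 0.75 for Car3, 0.99 for Retn, 1.21 for Fabp4, 1.40 for Adipoq, 1.60 for Cidec, 1.66 for Plin1, 1.70 for Lipe, 1.73 for Pnpla2 and 2.53 for Cfd.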

How the data were processed

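RNA of FACS-sorted dermal papilla cells was depleted of ribosomal RNA and made into libraries with a kit that marks the strand, per the labels' protocols. Per the submitters' processing notes, the tools included Trimmomatic, TopHat2, HTSeq and DESeq2, with GRCm38.p4 (mm10). The strand setting of the counting is not given in the sources. The values are the authors' deposited normalized counts (a signal), read counts divided by a factor per library, as seen from the values: 100% were whole reads within 0.01 reads. The deposited mean column is the mean of all 12 libraries, so both tables share 1 scale. The authors' deposited log2 fold change was computed as WT over Smo* and is printed here with its sign turned. The authors also deposited a test statistic (a score), a p-value and an adjusted p-value for each gene, made with their own test at each age.

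Symbols came from GENCODE M21, which named 98.7% of identifiers, and 0 sample columns were unused. Replicates are numbered in accession order. Main tests used limma 3.58.1 (R 4.3.3) on log2(value + 1) with its trended variance, kept genes whose mean reached 10, and adjusted by Benjamini-Hochberg at 0.05, over 6 libraries per age or, for the interaction and the ages, over all 12. Such fold changes understate low genes. edgeR 4.0.16 and DESeq2 1.42.0 on recovered reads, other scalings, filters and pseudocounts and leaving out each library were alternatives. With 3 against 3 libraries an exact permutation test cannot go below p = 0.1. Limits of 3 reads cover counting error only. All 9 members are named, with up to 4 genes per list, the 10 most alike and the 10 in each direction that most set P28 Smo* replicate 3 apart. The members, lists and rules were chosen with earlier results of these data known.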

Additional observations from a re-analysis of the deposited data

Results flagged for a closer look

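The Smo* effect differed between P28 and P20, by the interaction term of limma over 12 libraries, for Cebpa, Scd1 and Ebf1 among the 65 wider adipocyte genes tested, for Icam1 among the 10 progenitor genes and for 0 of the 9 members, where 4.72% of all genes passed. The difference was -2.61 for Cebpa (limma adjusted p = 0.0123), which lay at 3130 to 7857 in P20 Smo* and 2785 to 6363 in P20 WT. It was -2.07 for Scd1 (limma adjusted p = 0.000471). For Ebf1, a transcription factor of early adipocyte development, it was -1.28 (limma adjusted p = 0.0402). For Icam1 it was 2.59 (limma adjusted p = 0.0436). Genotype and growth stage differ together at P28 and not at P20, so these cannot be told apart. Single outlying values were not tested within groups of 3 libraries.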

How the results depend on the processing

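The number of members called at P28 was 1 by DESeq2 (of 3 with a p), 1 in the authors' deposited table (of 8) and 0 to 4 with 1 library left out, against 0 by limma on 6 libraries. For the interaction it was 1 by DESeq2. Between ages in WT it was 2 by DESeq2, 1 with a pseudocount of 0.5 and 0 to 1 with 1 library left out. These counts were 0 under the other settings run, and at P20 and between ages in Smo* 0 under all. P28 Smo* replicate 3 stayed at least 2-fold above both replicates for 8 members under TMM, quantile scaling, both pseudocounts and thinning, and for 7 of 8 at a mean of at least 50. There its mean correlation with them was 0.960 (0.968 before) and the members' share of squared differences was 3.89%.

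Direction turned at P20 for Pnpla2 (0.046 by the authors' deposited table, 0.052 by edgeR and 0.053 by DESeq2, against -0.07) and at P28 for Lipe (0.27 by the authors' deposited table and 0.34 by edgeR and DESeq2). With 1 library left out, P20 values spanned -0.72 to 3.32 for Adipoq, -0.19 to 3.73 for Cfd, -0.34 to 0.81 for Fabp4, -0.40 to 0.36 for Pnpla2 and -1.06 to 2.22 for Car3. P28 values spanned -1.002 to 0.93 for Plin1, -0.78 to 0.39 for Lipe and -0.12 to 0.53 for Pnpla2. The cause was not tested. Adjusted p at P28 over all settings ran from 0.00217 to 0.263 for Fabp4, 0.0436 to 0.359 for Car3 and 0.0252 to 0.947 for Plin1. Calls of Sfrp5, Cebpa, Zfp423, Scd1, Adrb3 and Npr3 at P28 held in all 18 alternatives, while Pdgfra, Itih5, Dlk1, Agpat2, Icam1, Cav1, Rbp4 and Adora1 lost theirs in 8, 7, 7, 6, 5, 5, 3 and 2, and Npr3 at P20 in 3. The interaction of Ebf1 was lost in 9 of 20 and of Icam1 in 12.

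No paired analysis was possible because the labels give no replicate numbers and no title number is shared, and what a title number stands for is not stated. Members with 0 to 3 reads in a library cannot be told from absent ones at this depth.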

Other observations

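At P20, 2 sets with near title numbers, each with 1 library per genotype, were alike in their place for the adipocyte genes. No limit for near numbers was set. The 9 members moved largely together, so they are not separate observations of a library's place. P20 Smo* replicate 2 (1244) and P20 WT replicate 1 (1245) were each below both libraries of their group for 9 of 9 members (35.3% and 34.8% of all genes). P20 Smo* replicate 3 (3010) was above both for 9 of 9 (33.7%) and P20 WT replicate 3 (3024) for 8 of 9 (34.2%). Plin1 lay at 74.9 and 50.9 in the first of these sets and at 379 and 115 in the second, Smo* first. At P28, Smo* replicate 2 (2647) was below both for 9 of 9 (29.4%) and WT replicate 1 (2648) for 2 of 9 (4865 of 14790 genes). Smo* replicate 3 (709) was above both for 9 of 9 (36.3% of all genes) and WT replicate 3 (698) for 2 of 9 (33.9%). What the numbers stand for is not stated, so no pairs were made.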
